A study of Homo sapiens with 10 samples.

Results

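The genes described here fold secretory and membrane proteins in the endoplasmic reticulum (ER), watch over that folding, and remove or import proteins at the ER membrane. They were taken from a list of 37 symbols, matched to the Ensembl identifiers of the deposited count tables, and make up 37 of 63299 listed identifiers. They were ordered into 6 sensors and regulators, 11 chaperones, 6 oxidoreductases, 9 genes of ER-associated degradation and 5 translocon genes. RNA-sequencing of polyadenylated RNA compared U2OS cells, a human osteosarcoma line, 48 h after knockdown with pooled siRNAs against the DEAD box helicase DDX41 (siDDX41, 5 libraries) or after a control knockdown (siCtrl, 5 libraries). The comparison asks which transcripts change when DDX41 is depleted. Between 23393764 and 24598860 reads were counted in the siCtrl libraries and between 21807041 and 24896398 in the siDDX41 libraries. The labels do not say whether the 5 libraries of a group came from separate cultures, so p-values measure the spread between these libraries, which may be technical.

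Proteins enter the ER through the SEC61 channel, are folded by chaperones such as BiP (HSPA5) and by oxidoreductases that form disulfide bonds, and are sent back to the cytosol for proteasomal degradation when folding fails. The unfolded protein response (UPR) is started by the kinase and nuclease IRE1 (ERN1), the kinase PERK (EIF2AK3) and the membrane-bound factor ATF6. IRE1 splices XBP1 mRNA. PERK slows translation through the factor eIF2 and thereby favours ATF4. Cleaved ATF6 enters the nucleus, and these factors together raise genes for chaperones and degradation. Splicing of XBP1, phosphorylation and cleavage are not visible in counts per gene and were not analysed here.

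DDX41 itself gave 49.1, 49.4, 47.3, 47.2 and 50.5 CPM in the siCtrl libraries and 11.5, 13.7, 12.4, 11.2 and 12.3 CPM in the siDDX41 libraries (CPM are counts scaled to a common library total with TMM factors). The highest siDDX41 library was far below the lowest siCtrl library, so that every library matched its label. DDX41 fell by 1.99 ± 0.049 on the log2 scale (SE), with an adjusted p = 4.47e-24 in the edgeR quasi-likelihood test, Benjamini-Hochberg adjusted over 16143 tested genes. A two-sided exact permutation test gave p = 0.00794, the smallest that 5 against 5 libraries allow. Markers of the line were also checked. Of 9 mesenchymal and bone genes, 7 had at least 1 CPM in each of the 10 libraries, SPARC was the most abundant, and their summed level lay between 8628 and 9047 CPM. COL1A2 and TWIST1 stayed under 1 CPM in each. Of 8 colon epithelial markers, summing to between 9.88 and 11.8 CPM with EPCAM the most abundant, 1 had at least 1 CPM in each library. So did 2 of 4 embryonic kidney markers (27.02 to 45.4 CPM, mostly LIN28B) and 2 of 7 blood cell markers (10.6 to 37.01 CPM, CD34 and CD33). The summed levels of the last 2 lists moved with the knockdown, since CD34 changed from 30.4 ± 1.49 to 4.66 ± 0.9004 CPM and LIN28B from 25.7 ± 0.793 to 41.4 ± 1.53 CPM. CD33 changed opposite to CD34, from 4.51 ± 0.3004 to 6.74 ± 0.345 CPM. The part of these markers in the results below was not tested.

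Of the 37 members, 35 passed the filter on low counts. HYOU1, an ER chaperone that also serves as a nucleotide exchange factor for BiP, was listed with 0 to 1 counts in each of the 10 libraries, and DERL3 was listed at 0 in each. A count of 0 over a group allows up to 0.025 CPM in siCtrl and 0.0256 CPM in siDDX41 (3 counts over the group, counting error only), so no fold change is given for either gene. Genes that every cell uses were listed in the same range, such as TUBB at 0 and BAG6 at 0 to 2 counts, and therefore these counts are not read as absence of the transcripts.

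After DDX41 knockdown, 13 of the 35 tested members rose and 13 fell at an adjusted p under 0.01, while 9 did not pass. Over all tested genes, 30.3% were upregulated and 32.1% downregulated, and the median log2 fold change was 0.015 for the members and -0.0014 for all tested genes. The shares of the members in each direction were thus near the background, and the median absolute log2 fold change was 0.21 for the members and 0.28 for all tested genes. The 5 libraries of both groups did not overlap, with siDDX41 higher, for 12 members (26.7% of all tested genes) and, with siDDX41 lower, for 11 members (29.3%). By role, each of the 6 sensors and regulators passed, 3 upward and 3 downward. Of the chaperones, 7 of 10 tested fell and 1 rose, and 4 of 5 translocon genes rose while none fell. The oxidoreductases (2 up, 1 down of 6) and the genes of ER-associated degradation (3 up, 2 down of 8 tested) were divided. Among these calls, those of SDF2L1, DNAJC3 and SEL1L were lost when certain single libraries were left out. Median log2 fold changes ran from -0.17 for the chaperones over -0.060 for sensors and regulators, 0.025 for oxidoreductases and 0.043 for ER-associated degradation to 0.21 for the translocon. No test was made between the roles.

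**Figure D1:**
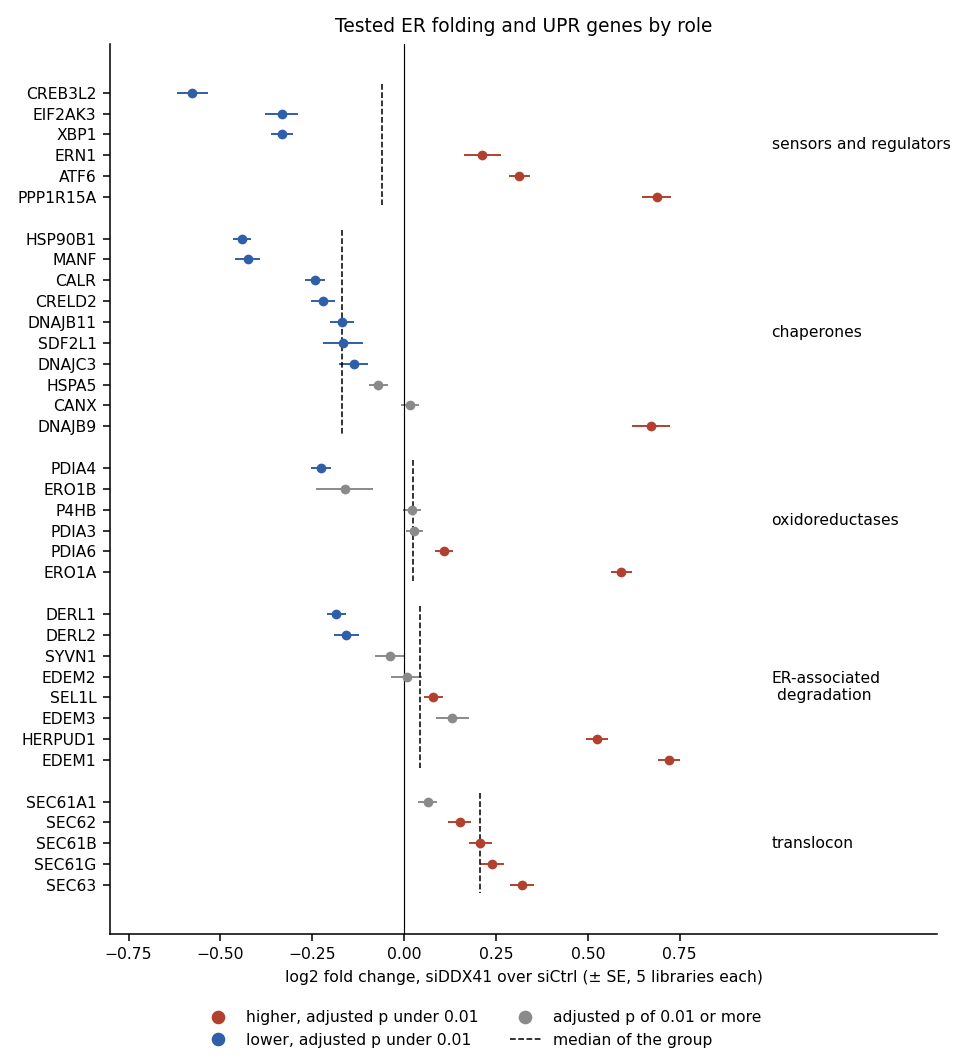
Log2 fold change of siDDX41 over siCtrl (horizontal axis, ± SE, 5 libraries per group) of the 35 tested members, grouped by role, with red for higher and blue for lower at an adjusted p under 0.01, gray for the others and dashed lines for group medians. Chaperones lie mostly to the left (7 of 10 lower), the 5 translocon genes to the right of 0, and the sensors and regulators on both sides (3 up, 3 down). Over all tested genes, 30.3% were higher and 32.1% lower.

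Together the members took 1.13% ± 0.00858 of all counts in siCtrl and 1.10% ± 0.00924 in siDDX41 (mean ± SD, n = 5). The chaperones summed to 5297 ± 75.3 CPM in siCtrl and 4637 ± 88.6 CPM in siDDX41, and their libraries did not overlap (5250.1 to 5430.0 against 4519 to 4727 CPM). The oxidoreductases summed to 3904 ± 47.0 and 4105 ± 68.6 CPM, the degradation genes to 933 ± 9.62 and 1034 ± 3.97 CPM, and the translocon genes to 795 ± 11.9 and 870.3 ± 14.5 CPM. The sensors and regulators summed to 382 ± 5.90 and 384 ± 7.50 CPM, which overlap. The gene with the highest CPM of each role in siCtrl was ATF6, HSP90B1, P4HB, SEL1L and SEC61A1 for sensors, chaperones, oxidoreductases, degradation and translocon. In siDDX41 these were the same genes except for the chaperones, where CANX came first. CPM are not scaled to gene length, and the order per kilobase, given below, differs.

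**Figure D2:**
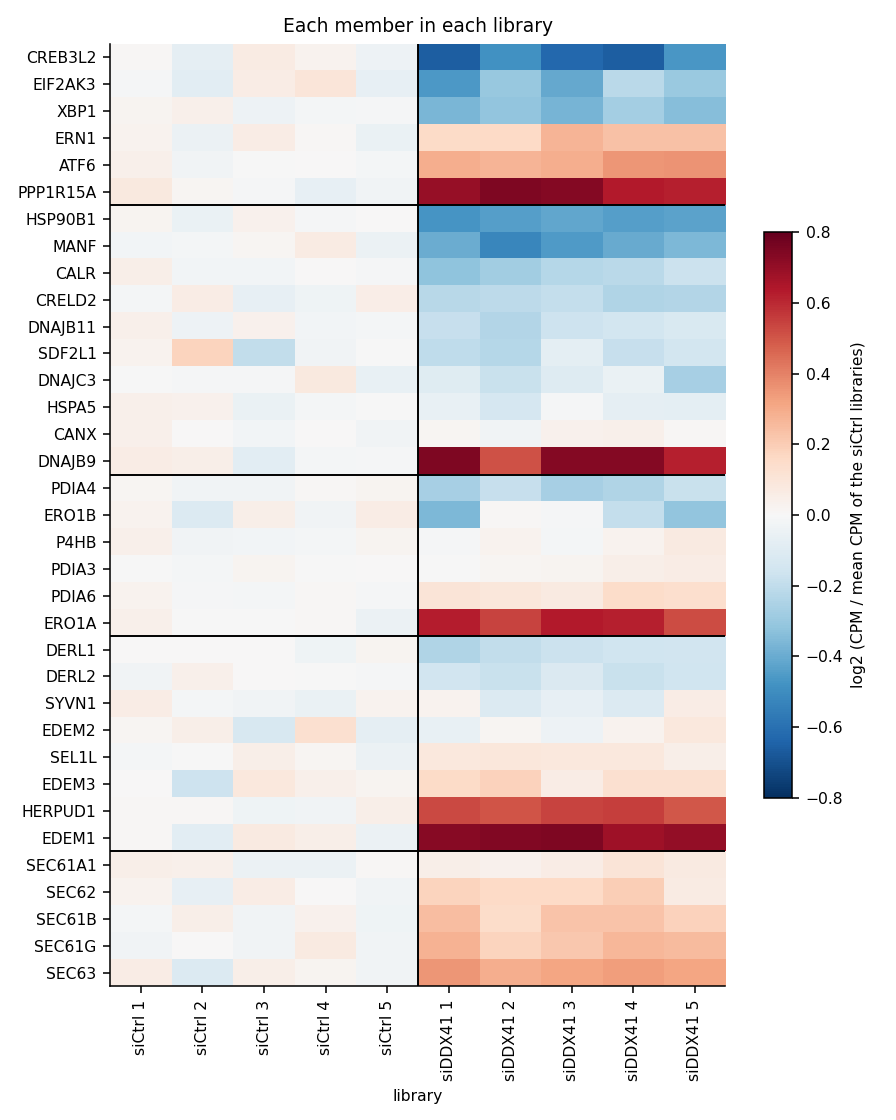
Log2 ratio of CPM in each library to the mean CPM of the siCtrl libraries (colour scale) for the 35 tested members in role order, siCtrl libraries on the left and siDDX41 libraries on the right of the vertical line. The 5 siDDX41 libraries share one colour for the 12 members that were higher and the 11 that were lower without overlap. The shares over all tested genes were 26.7% and 29.3%. EDEM2, SYVN1, P4HB and CANX stay pale in both groups.

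Many genes of the UPR were first grouped by short promoter elements, and these were looked up in the RefSeq promoter table (GRCh38.p14, 250 bases before to 50 after a start site), in which 34 of the 37 members were matched, all but PDIA3, DERL1 and DERL3. The ER stress response element (ERSE) was searched as CCAAT, 9 bases of any kind and CCACG, and ERSE-II as ATTGG, 1 base and CCACG, on both strands. ERSE letters stood in a window of 8 members (HSPA5, HSP90B1, XBP1, PDIA6, CALR, CANX, CRELD2 and ERO1B) and in 0.0769% of all 35116 windows. ERSE-II letters stood in 3 members (HERPUD1, SDF2L1 and HYOU1) and 0.0541% of all windows. The UPRE letters TGACGTGG were found in HYOU1, where they overlap an ERSE-II, and in SEC62, against 0.729% of all windows. The CARE letters TGATGNAA were found in HERPUD1 and CREB3L2, against 3.62% of all windows. Counted by gene, as the members are, the shares over all 27305 genes were 0.0916% for ERSE and 0.0696% for ERSE-II. They were 0.927% for UPRE and 4.46% for CARE, beside 5.88% of the members for either. The ERSE of CANX and ERO1B, which did not pass the test, and the ERSE-II of HYOU1, which was not tested, are not printed. The stretches below show the other ERSE and ERSE-II, of members that fell, rose or, for HSPA5, did not pass. Fixed letters are in capitals with 5 bases on each side, read 5′ to 3′ along the strand that carries the letters.
HSPA5 ERSE: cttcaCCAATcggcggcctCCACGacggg
HSP90B1 far ERSE: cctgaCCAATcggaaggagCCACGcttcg
HSP90B1 near ERSE: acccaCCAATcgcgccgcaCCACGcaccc
XBP1 ERSE: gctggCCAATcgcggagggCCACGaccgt
CALR ERSE: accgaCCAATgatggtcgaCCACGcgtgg
CRELD2 ERSE: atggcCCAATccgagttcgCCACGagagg
PDIA6 ERSE: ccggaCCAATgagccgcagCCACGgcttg
HERPUD1 ERSE-II: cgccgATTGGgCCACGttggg
SDF2L1 ERSE-II: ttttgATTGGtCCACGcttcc

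The HSPA5 stretch lies at chr9:125241386-125241414 on the minus strand, with the ERSE 66 to 48 bases before the start site. That of XBP1 lies at chr22:28800598-28800626 on the minus strand, 52 to 34 bases before it. HSP90B1 has ERSE letters on either strand, the far one at chr12:103930211-103930239 on the plus strand (194 to 176 bases before the start) and the near one at chr12:103930316-103930344 on the minus strand (89 to 71 bases before it). The stretches of CALR (chr19:12938379-12938407 on the minus strand, 225 to 207 bases before the start) and CRELD2 (chr22:49918549-49918577 on the minus strand, 80 to 62 bases before it) read against the direction of the gene. In GENCODE the HSPA5, XBP1 and CALR stretches are outside the gene's transcripts, the CRELD2 one is in an intron of a transcript, and both of HSP90B1 overlap an exon of a transcript. PDIA6 carries the letters before one of its start sites (chr2:10812848-10812876 on the minus strand, 86 to 68 bases before it, intronic in other transcripts). The ERSE-II of HERPUD1 is at chr16:56932020-56932040 on the plus strand, 117 to 107 bases before the start. That of SDF2L1 is at chr22:21642109-21642129 on the minus strand, 188 to 178 bases before it, both outside the gene's transcripts. Of the 10 tested members with either element, 5 fell (HSP90B1, XBP1, CALR, CRELD2 and SDF2L1), 2 rose (HERPUD1 and PDIA6) and 3 did not pass (HSPA5, CANX and ERO1B), with a median log2 fold change of -0.16. Of the 23 members in the table with neither element, 11 rose and 7 fell, with a median of 0.079. Over all tested genes 30.3% rose and 32.1% fell. The calls of SDF2L1, with an element, and of SEL1L and DNAJC3, with neither, were lost when certain single libraries were left out. These matches describe letters in a window, and no test was made on them.

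The sensors and regulators moved apart. ERN1 (ENSG00000178607.15, chr17:64039080-64130819) encodes IRE1. It gave 17.8, 16.9, 18.2, 17.6 and 16.9 CPM in the siCtrl libraries and 19.5, 19.5, 21.2, 20.6 and 20.6 CPM in the siDDX41 libraries. ATF6 (ENSG00000118217.5, chr1:161766298-161977574) gave 126, 120.2, 122, 123 and 121 CPM in the siCtrl libraries and 150.1, 148, 149.6, 156 and 157 CPM in the siDDX41 libraries. In both genes each siDDX41 library lay above the highest siCtrl library, with replicates 3 to 5 at the upper end for ERN1 and replicates 4 and 5 for ATF6. By the edgeR quasi-likelihood test and Benjamini-Hochberg adjustment, ERN1 rose by 0.21 ± 0.049 on the log2 scale (adjusted p = 0.000331) and ATF6 by 0.31 ± 0.028 (adjusted p = 5.09e-11). EIF2AK3 (ENSG00000172071.11, chr2:88556741-88691518) encodes PERK and gave 49.99, 47.4, 52.3, 53.7 and 48.03 CPM in the siCtrl libraries and 36.6, 40.8, 37.9, 43.3 and 40.95 CPM in the siDDX41 libraries. Its siDDX41 libraries were all lower, the nearest pair being siDDX41 replicate 4 and siCtrl replicate 2, and the log2 fold change was -0.33 ± 0.045 (edgeR adjusted p = 1.4e-07).

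XBP1 (ENSG00000100219.16, chr22:28794555-28800597) is the factor whose mRNA IRE1 splices. It gave 102, 104, 97.8, 99.6 and 100.2 CPM in the siCtrl libraries and 78.02, 80.9, 77.998, 83.4 and 79.6 CPM in the siDDX41 libraries. The total of spliced and unspliced XBP1 transcripts was thus lower in each siDDX41 library (log2 fold change -0.33 ± 0.031, edgeR adjusted p = 7.41e-11), in the same cells in which ERN1 was higher. CREB3L2 (ENSG00000182158.14, chr7:137874979-138002086) is a membrane-bound factor of the ATF6 kind that raises secretory genes. Its transcripts gave 57.99, 54.9, 60.2, 58.8 and 56.1 CPM in the siCtrl libraries and 36.5, 41.1, 37.3, 36.4 and 41.6 CPM in the siDDX41 libraries. Its siDDX41 replicates 2 and 5 were nearest to the controls but still well below them (log2 fold change -0.58 ± 0.042, edgeR adjusted p = 3.68e-13). PPP1R15A (ENSG00000087074.7, chr19:48872212-48876059) encodes GADD34, which brings a phosphatase to eIF2 and so ends the translational arrest set by PERK. It gave 35.1, 33.6, 33.1, 31.8 and 32.7 CPM in the siCtrl libraries and 53.9, 55.8, 55.3, 51.6 and 51.1 CPM in the siDDX41 libraries. The siDDX41 libraries were higher throughout, with little spread in either group (log2 fold change 0.69 ± 0.039, edgeR adjusted p = 1.39e-15).

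**Figure D3:**
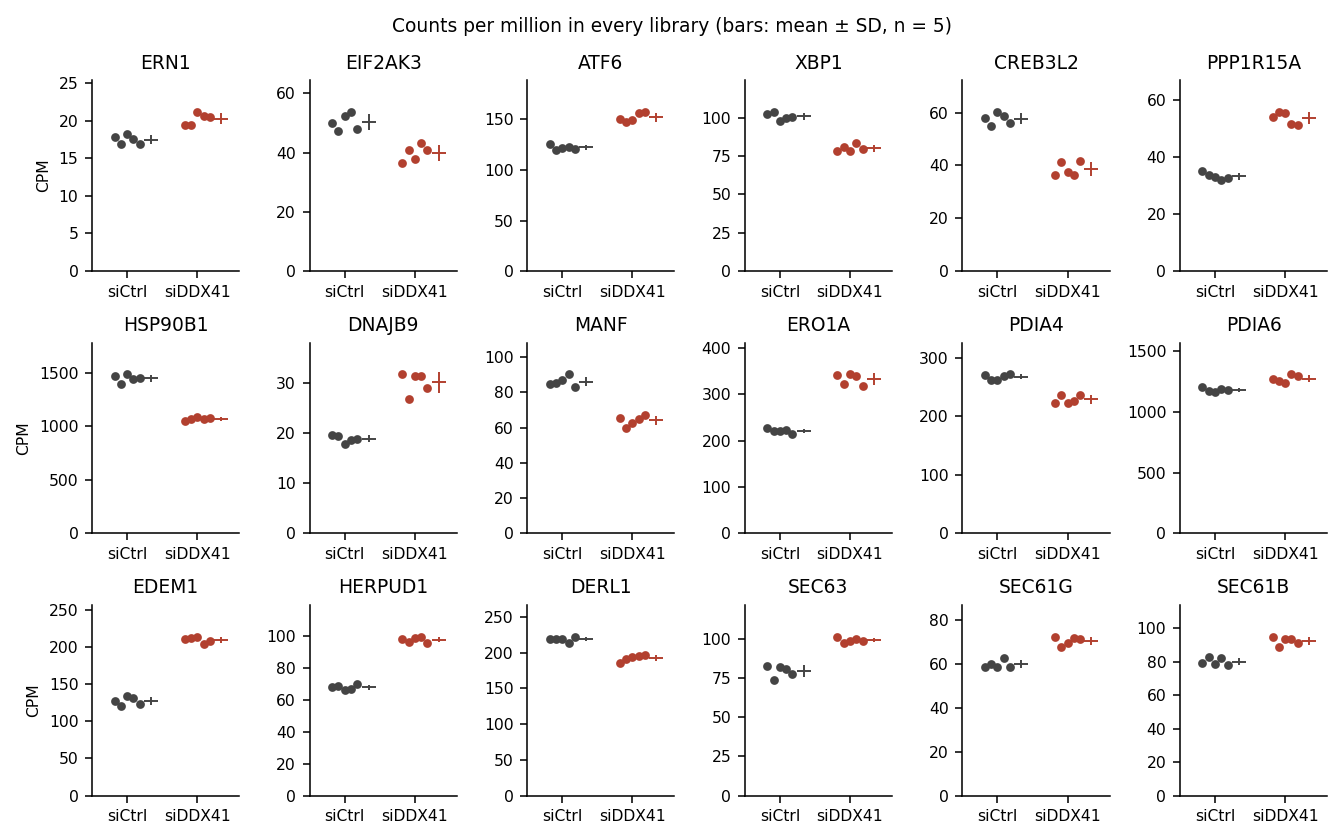
CPM in each of the 5 siCtrl (dark) and 5 siDDX41 (red) libraries, on linear axes from 0, for the 18 members whose values are given library by library, with mean ± SD beside the points. In each of these panels the groups do not overlap, with the largest log2 fold changes in EDEM1, PPP1R15A, DNAJB9 and ERO1A (higher) and in CREB3L2 and HSP90B1 (lower).

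Among the chaperones, HSP90B1 (ENSG00000166598.13, chr12:103930107-103953931) is the ER paralog of HSP90, also called GRP94. It gave 1475, 1400.03, 1487, 1439.5 and 1453 CPM in the siCtrl libraries and 1047, 1068, 1086, 1067 and 1078 CPM in the siDDX41 libraries. The siDDX41 libraries lay within a narrow band below the controls (log2 fold change -0.44 ± 0.024, edgeR adjusted p = 6.58e-16, by the quasi-likelihood test and Benjamini-Hochberg adjustment). MANF (ENSG00000145050.15, chr3:51385291-51389397) is a secreted cofactor of BiP. Its transcripts gave 84.8, 85.1, 87.1, 90.2 and 83.2 CPM in the siCtrl libraries and 65.2, 60.02, 62.8, 65.1 and 67.05 CPM in the siDDX41 libraries. Again the groups did not overlap, with siDDX41 replicate 2 the lowest (log2 fold change -0.43 ± 0.034, edgeR adjusted p = 3.91e-12). DNAJB9 (ENSG00000128590.4, chr7:108569867-108574850) is the BiP cochaperone ERdj4, which hands IRE1 back to BiP. It went the other way, with 19.6, 19.5, 17.8, 18.7 and 18.7 CPM in the siCtrl libraries and 31.7, 26.8, 31.4, 31.4 and 28.99 CPM in the siDDX41 libraries. The lowest siDDX41 library, replicate 2, was above each control, and DNAJB9 was the 1 tested chaperone that rose (log2 fold change 0.67 ± 0.051, edgeR adjusted p = 1.05e-12).

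The most abundant chaperones differed among themselves. HSPA5, the central ER chaperone, lay at 1062 to 1133 CPM in siCtrl and 1006 to 1095 CPM in siDDX41, ranges that overlap. It did not pass the test (log2 fold change -0.070 ± 0.026, edgeR adjusted p = 0.0189). The lectin chaperone CANX, which is anchored in the membrane, lay at 1093 to 1148 and 1092 to 1149 CPM and did not pass either (log2 fold change 0.015 ± 0.024, edgeR adjusted p = 0.586). Its soluble counterpart CALR fell from 1292 ± 26.2 to 1092 ± 44.02 CPM (log2 fold change -0.24 ± 0.027, edgeR adjusted p = 4.27e-09). The libraries of CALR did not overlap, so the lectin pair was divided in these cells. CRELD2, a secreted protein raised by ER stress, fell from 75.1 ± 2.82 to 64.4 ± 0.931 CPM with no overlap (log2 fold change -0.22 ± 0.033, edgeR adjusted p = 7.28e-07). The BiP cochaperone DNAJB11 did the same, from 76.6 ± 1.86 to 68.1 ± 1.997 CPM (log2 fold change -0.17 ± 0.032, edgeR adjusted p = 3.09e-05). SDF2L1, which works with DNAJB11, fell from 26.1 ± 2.42 to 23.2 ± 0.981 CPM with overlapping libraries (log2 fold change -0.17 ± 0.055, edgeR adjusted p = 0.00814). DNAJC3, a cochaperone and inhibitor of PERK, fell from 53.9 ± 1.897 to 48.96 ± 2.85 CPM, also with overlap (log2 fold change -0.14 ± 0.040, edgeR adjusted p = 0.00302). Their calls were lost when any of 8 of the 10 libraries was left out for SDF2L1 (highest adjusted p 0.0423) and any of 3 for DNAJC3 (highest adjusted p 0.02). A further limit is that exons of CRELD2 and DNAJB11 overlap those of ALG12 and TBCCD1 on the other strand, and the strand setting of the counting is not given in the sources used here.

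The oxidoreductases were divided by enzyme. ERO1A (ENSG00000197930.12, chr14:52639915-52695900) is the oxidase that passes disulfide bonds to protein disulfide isomerases. It gave 227, 220.3, 221, 223 and 214 CPM in the siCtrl libraries and 342, 321, 343, 340.1 and 318 CPM in the siDDX41 libraries. The siDDX41 replicates 2 and 5 were the lowest of their group and still stood far above the controls. ERO1A rose by 0.59 ± 0.028 on the log2 scale (edgeR quasi-likelihood test and Benjamini-Hochberg adjustment, adjusted p = 2.45e-17). Its paralog ERO1B was scarce, at 7.63 to 8.58 CPM in siCtrl and 6.44 to 8.29 CPM in siDDX41, and did not pass (log2 fold change -0.16 ± 0.078, edgeR adjusted p = 0.0658). PDIA4 (ENSG00000155660.10, chr7:149003062-149028662) gave 270.4, 263, 262, 269 and 272 CPM in the siCtrl libraries and 222, 236, 222, 227 and 237 CPM in the siDDX41 libraries. PDIA6 (ENSG00000143870.12, chr2:10783391-10837977) gave 1207, 1174, 1168, 1189 and 1177 CPM in the siCtrl libraries and 1268, 1259, 1241, 1309.95 and 1297 CPM in the siDDX41 libraries. These isomerases separated in opposite directions, PDIA4 lower (log2 fold change -0.23 ± 0.027, edgeR adjusted p = 1.55e-08) and PDIA6 slightly higher (log2 fold change 0.11 ± 0.024, edgeR adjusted p = 0.000223). P4HB, the founding protein disulfide isomerase, and PDIA3, which acts on glycoproteins with CANX and CALR, had overlapping libraries and did not pass (log2 fold changes 0.021 ± 0.025 and 0.028 ± 0.024, edgeR adjusted p = 0.459 and 0.29).

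In ER-associated degradation, EDEM1 (ENSG00000134109.10, chr3:5187646-5219958) is a mannosidase-like protein that marks misfolded glycoproteins. It gave 128, 119.7, 134, 131 and 123 CPM in the siCtrl libraries and 210.3, 212, 214, 203 and 207 CPM in the siDDX41 libraries. Each siDDX41 library exceeded each control. EDEM1 had the largest rise of the 35 tested members, 0.72 ± 0.030 on the log2 scale (edgeR quasi-likelihood test and Benjamini-Hochberg adjustment, adjusted p = 1.2e-18). Its paralog EDEM2 did not pass (52.4 ± 3.62 to 52.6 ± 2.17 CPM, log2 fold change 0.0064 ± 0.042, edgeR adjusted p = 0.9). EDEM3, a further paralog, missed the threshold narrowly (32.7 ± 2.11 to 35.8 ± 1.15 CPM, log2 fold change 0.13 ± 0.045, edgeR adjusted p = 0.0104). HERPUD1 (ENSG00000051108.14, chr16:56932142-56944864) is a membrane protein that organizes the degradation complex, and its promoter window holds both ERSE-II and CARE letters. It gave 68.3, 68.4, 66.2, 66.7 and 70.2 CPM in the siCtrl libraries and 98.1, 96.2, 98.9, 99.7 and 95.8 CPM in the siDDX41 libraries. Both groups were tight and far apart (log2 fold change 0.52 ± 0.030, edgeR adjusted p = 1.95e-15).

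SEL1L and SYVN1 of the same complex changed little. SEL1L, the adaptor of the ubiquitin ligase HRD1, lay at 325 to 346 CPM in siCtrl and 345 to 358 CPM in siDDX41. Its small rise (log2 fold change 0.079 ± 0.025, edgeR adjusted p = 0.00711) was lost when any of 8 of the 10 libraries was left out (highest adjusted p 0.0337). SYVN1, which encodes HRD1, did not pass (49.9 ± 1.58 to 48.6 ± 2.66 CPM, log2 fold change -0.039 ± 0.039, edgeR adjusted p = 0.371). Its exons overlap those of FAU, which had 435% of its counts, and of MRPL49. DERL1 (ENSG00000136986.9, chr8:123013170-123042302) is a channel-like membrane protein of this pathway. It gave 219.5, 219, 219.6, 213 and 222 CPM in the siCtrl libraries and 185, 191, 194, 196 and 197 CPM in the siDDX41 libraries. Here the siDDX41 libraries were lower without overlap (log2 fold change -0.18 ± 0.027, edgeR adjusted p = 4.29e-07, by the quasi-likelihood test and Benjamini-Hochberg adjustment). Its exons overlap those of TBC1D31 on the other strand, which had 19.2% of its counts. Its paralog DERL2 was likewise lower in each siDDX41 library (48.9 ± 0.827 to 43.9 ± 0.829 CPM, log2 fold change -0.16 ± 0.035, edgeR adjusted p = 0.000183), but shares exon bases with MIS12, which had 88.4% of its counts.

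Of the translocon genes, 4 of 5 rose and none fell, beside 30.3% up and 32.1% down over all tested genes. SEC63 (ENSG00000025796.13, chr6:107867756-107958208) is a membrane cochaperone that recruits BiP to the channel. It gave 82.8, 73.8, 82.1, 80.8 and 77.8 CPM in the siCtrl libraries and 101, 97.3, 98.8, 100.1 and 98.8 CPM in the siDDX41 libraries. The siDDX41 libraries sat close together above the controls (log2 fold change 0.32 ± 0.033, edgeR adjusted p = 5.86e-10, by the quasi-likelihood test and Benjamini-Hochberg adjustment). SEC62, the partner of SEC63 in import after translation, rose from 98.9 ± 3.31 to 109.8 ± 3.83 CPM (log2 fold change 0.15 ± 0.032, edgeR adjusted p = 0.000112). The small channel subunit SEC61G (ENSG00000132432.13, chr7:54752250-54759974) gave 58.6, 59.7, 58.6, 62.8 and 58.6 CPM in the siCtrl libraries and 72.3, 67.6, 69.3, 71.8 and 71.01 CPM in the siDDX41 libraries. The other, SEC61B (ENSG00000106803.9, chr9:99222064-99230615), gave 79.2, 82.6, 78.6, 82.1 and 78.1 CPM in the siCtrl libraries and 95.04, 88.7, 93.8, 93.7 and 91.1 CPM in the siDDX41 libraries. Neither gene's groups overlapped, and siDDX41 replicate 2 was the lowest of its group in both. SEC61G rose by 0.24 ± 0.033 on the log2 scale (edgeR adjusted p = 2.57e-07) and SEC61B by 0.21 ± 0.031 (edgeR adjusted p = 8.68e-07). SEC61A1, which encodes the pore itself, lay at 461 to 492 CPM in siCtrl and 487 to 512 CPM in siDDX41, with overlap. It did not pass (log2 fold change 0.064 ± 0.026, edgeR adjusted p = 0.0318), and it shares exon bases with RUVBL1 on the other strand, which had 18.1% of its counts.

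Levels were compared between genes as CPM per kilobase of exons, a level in siCtrl given as mean ± SD (n = 5). The length is the union of all annotated exons of a gene, not the length of its main transcript. It was 2802 bases for CALR, 13092 for HSP90B1 and 6530 for HSPA5, where it covers the whole gene despite 8 exons. The order below therefore depends on the annotation as well as on the counts. CALR stood highest at 461 ± 9.37, followed by PDIA6 at 289 ± 3.78, HSPA5 at 169 ± 4.43, P4HB at 116 ± 2.56 and HSP90B1 at 111 ± 2.59. PDIA4, CANX and PDIA3 formed a close trio at 81.04 ± 1.33, 80.97 ± 1.55 and 79.3 ± 0.725, whose ranges of mean ± SD overlap. Of the sensors, EIF2AK3 and ERN1 were among the scarcest members, with EIF2AK3 at 2.43 ± 0.1302 and ERN1 at 0.913 ± 0.0314 against 8.59 ± 0.154 for ATF6 and 33.3 ± 0.763 for XBP1. ERO1B was lowest of the tested members at 0.537 ± 0.0258, and ERO1A stood at 29.3 ± 0.653. The members with the largest rises, EDEM1, PPP1R15A and DNAJB9, had levels of 18.9 ± 0.858, 9.69 ± 0.352 and 7.43 ± 0.292. In siDDX41 the order of the first 3 was kept, with CALR at 389.7 ± 15.7, PDIA6 at 311 ± 6.87 and HSPA5 at 161 ± 4.86. HSP90B1 then stood at 81.7 ± 1.11, level with CANX at 81.8 ± 1.62.

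**Figure D4:**
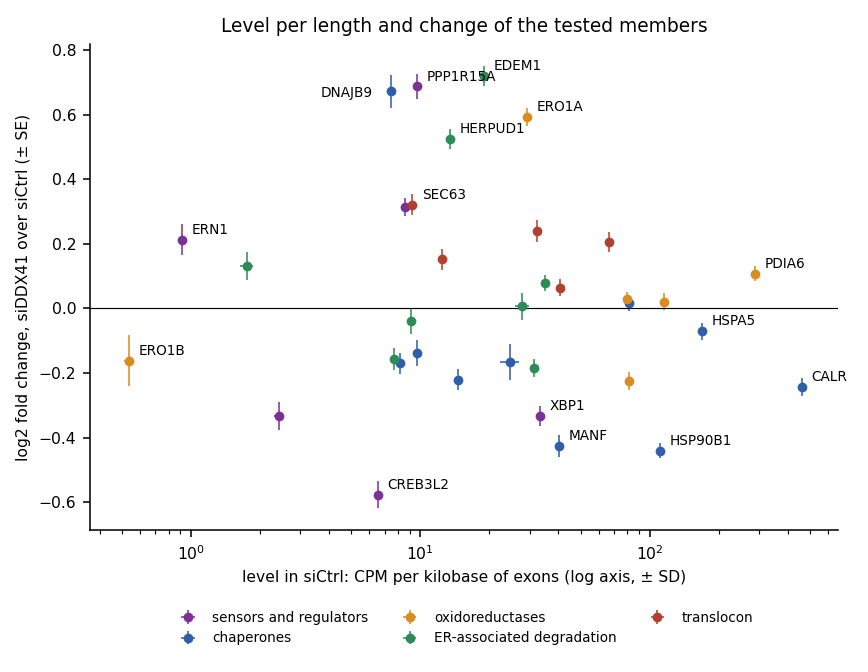
Level in siCtrl as CPM per kilobase of exons (horizontal log axis, ± SD, n = 5) against the log2 fold change of siDDX41 over siCtrl (vertical axis, ± SE) for the 35 tested members, coloured by role. Rises above 0.5 (EDEM1, PPP1R15A, DNAJB9, ERO1A and HERPUD1) occur at levels from 7.43 for DNAJB9 to 29.3 for ERO1A. Of the 5 members highest on this axis, HSP90B1 lies at -0.44 and the others (CALR, PDIA6, HSPA5 and P4HB) between -0.24 and 0.11. The axis uses the union of all annotated exons, so positions depend on the annotation too.

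By the branch that textbooks name as leading, 10 members are often described as ATF6 targets and 13 as XBP1 targets. Of the 9 tested members in the ATF6 list, 6 fell (HSP90B1, PDIA4, CALR, CRELD2, SDF2L1 and MANF) and 2 rose (HERPUD1 and SEL1L), with a median log2 fold change of -0.22. Of the 12 tested members in the XBP1 list, 6 rose (DNAJB9, EDEM1, SEC61B, SEC61G, SEC63 and PDIA6) and 4 fell (DNAJC3, DERL1, DERL2 and DNAJB11), with a median of 0.086. The calls of SEL1L and SDF2L1 in the first list and of DNAJC3 in the second were lost when certain single libraries were left out. The shares over all tested genes were 30.3% up and 32.1% down. Branch membership is a description from general knowledge, many targets answer to more than one factor, and neither list was tested against the other.

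Further genes of the pathway were then counted in lists that leave out the 37 members. In the list of other UPR regulators and proteases, 6 of 14 tested genes rose and 7 fell (median log2 fold change -0.014), beside 30.3% and 32.1% of all tested genes. CREB3L1, a membrane-bound factor that raises collagen secretion genes, had the smallest adjusted p, falling from 24.1 ± 0.934 to 9.68 ± 1.04 CPM (log2 fold change -1.31 ± 0.061, edgeR adjusted p = 1.26e-17, by the quasi-likelihood test and Benjamini-Hochberg adjustment). NFE2L1, an ER-anchored activator of proteasome genes, rose from 419.7 ± 11.1 to 524 ± 5.05 CPM (log2 fold change 0.32 ± 0.025, edgeR adjusted p = 2.1e-12). MBTPS1, the protease that makes the first cut in ATF6, fell from 254 ± 5.79 to 205 ± 5.03 CPM (log2 fold change -0.31 ± 0.027, edgeR adjusted p = 2.08e-11). MBTPS2, the protease of the later cut, named here after its values were seen, rose from 23.6 ± 0.517 to 30.6 ± 1.104 CPM (log2 fold change 0.37 ± 0.043, edgeR adjusted p = 6.01e-09).

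The list around PERK and ATF4, which also holds ATF4 itself, EIF2S1 and the parallel kinases EIF2AK1, EIF2AK2 and EIF2AK4, had 11 of 20 tested genes up and 6 down, with a median of 0.24, beside 30.3% up and 32.1% down over all tested genes. The 6 down include CEBPB and VLDLR, whose libraries overlap, and numbered 4 to 6 when single libraries were left out and 4 with the replicate number as a block. Its 3 genes with the smallest adjusted p were ATF4 targets of amino acid supply. ASNS, which makes asparagine, rose from 118 ± 3.25 to 259.7 ± 9.06 CPM (log2 fold change 1.14 ± 0.030, edgeR adjusted p = 1.25e-23). PSAT1 of serine synthesis rose from 51.6 ± 2.705 to 110.5 ± 5.78 CPM (log2 fold change 1.10 ± 0.039, edgeR adjusted p = 6.1e-20). The cystine carrier SLC7A11 rose from 63.8 ± 3.07 to 162 ± 10.998 CPM (log2 fold change 1.34 ± 0.043, edgeR adjusted p = 1.43e-17, all by the quasi-likelihood test and Benjamini-Hochberg adjustment). ATF4, ATF5, DDIT3 and DDIT4 are named here after their values were seen. ATF4 gave 303 ± 6.41 CPM in siCtrl and 399 ± 10.3 CPM in siDDX41 (mean ± SD, n = 5) and rose (log2 fold change 0.40 ± 0.026, edgeR adjusted p = 4.62e-14). DDIT3 gave 11.1 ± 0.831 CPM in siCtrl and 11.6 ± 0.842 CPM in siDDX41 (mean ± SD, n = 5) and did not pass (log2 fold change 0.055 ± 0.066, edgeR adjusted p = 0.465). DDIT3 shares exon bases with MARS1, which had far more counts, so that its value is uncertain. ATF5, a factor related to ATF4, fell from 29.9 ± 2.51 to 12.5 ± 0.905 CPM (log2 fold change -1.25 ± 0.060, edgeR adjusted p = 4.4e-17), but shares exon bases with NUP62 on the other strand, which had 578% of its counts. DDIT4, an inhibitor of mTORC1 signalling, fell from 55.1 ± 1.79 to 32.9 ± 1.32 CPM (log2 fold change -0.75 ± 0.039, edgeR adjusted p = 1.5e-16).

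Other ER chaperones and folding enzymes had 22 of 44 tested genes up and 12 down (median 0.089), where 30.3% and 32.1% of all tested genes rose and fell. The collagen chaperone SERPINH1 fell from 527 ± 22.8 to 206 ± 8.59 CPM (log2 fold change -1.35 ± 0.032, edgeR adjusted p = 5.12e-24). The membrane protein ERLIN1 fell from 155 ± 2.99 to 71.3 ± 1.77 CPM (log2 fold change -1.12 ± 0.029, edgeR adjusted p = 1.37e-23). It was counted in this list, although its partner ERLIN2 is in the degradation list and ERLIN1 is not a folding enzyme. The calcium-binding CALU fell from 462 ± 5.52 to 231 ± 12.5 CPM (log2 fold change -0.999 ± 0.030, edgeR adjusted p = 5.38e-22, all by the quasi-likelihood test and Benjamini-Hochberg adjustment). Each of these falls was larger than that of any member. Other genes of ER-associated degradation were split evenly, 11 up and 11 down of 35 tested (median 0.0063), near the same shares of all tested genes. ERLIN2, which forms a complex with ERLIN1, rose from 89.3 ± 3.58 to 158 ± 2.79 CPM (log2 fold change 0.82 ± 0.030, edgeR adjusted p = 5.16e-20). The flavoprotein FOXRED2 fell from 163 ± 3.24 to 97.3 ± 4.84 CPM (log2 fold change -0.74 ± 0.032, edgeR adjusted p = 1.79e-18). OS9, the lectin that delivers glycoproteins to SEL1L, fell from 281 ± 10.04 to 184 ± 6.52 CPM (log2 fold change -0.61 ± 0.030, edgeR adjusted p = 5.27e-17). The ERLIN partners therefore moved in opposite directions.

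ER targeting, translocation and N-glycosylation genes beyond the members had 26 of 45 up and 8 down, with a median of 0.15, beside 4 up and 0 down among the 5 translocon members and 30.3% up and 32.1% down over all tested genes. SRP14 of the signal recognition particle rose from 167 ± 6.77 to 228 ± 6.32 CPM (log2 fold change 0.45 ± 0.030, edgeR adjusted p = 5.4e-14). SRP68 of the same particle fell from 159 ± 4.26 to 118 ± 4.55 CPM (log2 fold change -0.43 ± 0.030, edgeR adjusted p = 2.62e-13). The receptor subunit SRPRA rose from 163 ± 2.09 to 210.4 ± 4.87 CPM (log2 fold change 0.37 ± 0.026, edgeR adjusted p = 3.64e-13, all by the quasi-likelihood test and Benjamini-Hochberg adjustment). ER exit and retrieval genes had 9 of 31 tested genes up and 13 down (median -0.020), against the same 30.3% and 32.1%. KDELR1, the receptor that returns soluble ER proteins such as HSPA5 and HSP90B1, fell from 212 ± 5.02 to 95.8 ± 5.22 CPM (log2 fold change -1.15 ± 0.033, edgeR adjusted p = 1.13e-22). The coat gene SEC24C fell from 244 ± 4.95 to 199 ± 4.93 CPM (log2 fold change -0.29 ± 0.027, edgeR adjusted p = 7.2e-11), and COPG1 of another coat from 216 ± 5.39 to 175 ± 6.25 CPM (log2 fold change -0.31 ± 0.029, edgeR adjusted p = 1.25e-10).

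Transcripts reported as substrates of the IRE1 nuclease were counted last, with 3 of 7 up and 4 down (median -0.18), beside 30.3% and 32.1% of all tested genes. The 4 down include BLOC1S1, whose libraries overlap, and numbered 3 to 4 when single libraries were left out. BLOC1S1 shares exon bases with ITGA7 on the other strand, which had 348% of its counts. PMP22 fell from 98.2 ± 1.92 to 48.4 ± 3.84 CPM (log2 fold change -1.02 ± 0.041, edgeR adjusted p = 1.42e-18). PDGFRB fell from 97.3 ± 3.97 to 49.5 ± 3.64 CPM (log2 fold change -0.97 ± 0.041, edgeR adjusted p = 1.02e-17), and HGSNAT from 23.5 ± 1.52 to 14.6 ± 0.835 CPM (log2 fold change -0.69 ± 0.055, edgeR adjusted p = 3.75e-12, all by the quasi-likelihood test and Benjamini-Hochberg adjustment). Among the 3 that rose was SPARC, also the most abundant mesenchymal marker. Nuclease activity was not measured by these counts.

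**Figure D5:**
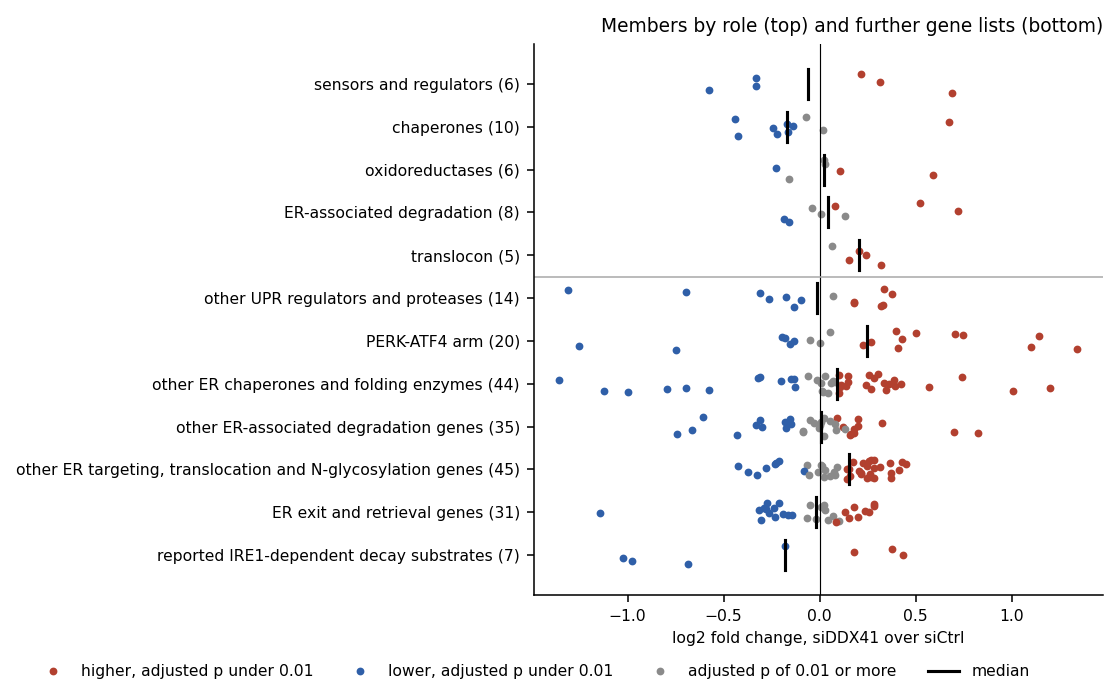
Log2 fold change of siDDX41 over siCtrl (horizontal axis) of each tested gene, with the 5 roles of the members above the gray line and the 7 further lists below it, numbers of tested genes in parentheses, red and blue for higher and lower at an adjusted p under 0.01 and black bars for medians. Medians lie at 0.21 for the translocon members, 0.24 for the PERK and ATF4 list and -0.17 for the chaperones.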

How the data were processed

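Stranded libraries of polyadenylated RNA were prepared by the authors, who mapped single reads to hg38 with STAR 2.7 and counted them per gene with featureCounts 1.6, by the submitters' processing notes and the study's methods. What was deposited are raw read counts for each gene and library, not normalized. The strand setting and the treatment of reads with several matches are not given in the sources used here. Identifiers were joined without their version to GENCODE release 44 on the same build, and 98.7% of tested genes had a name.

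Counts were fitted across all genes with edgeR 4.0.16 in R 4.3.3 (filterByExpr by group, TMM factors, robust quasi-likelihood test, Benjamini-Hochberg adjustment, adjusted p under 0.01), after the fit had been tested on simulated counts. There, edgeR recovered 68 of 100 genes changed 1.25-fold and 90 of 100 changed 1.5-fold. A gene that did not pass may therefore still have a small change. The biological coefficient of variation was 3.65%. The SE of a log2 fold change was derived from the same test, as its absolute value divided by the square root of the quasi-likelihood F statistic. CPM use TMM-scaled totals, and levels per kilobase use the union of a gene's exons. Alternatives were DESeq2 1.42.0, limma 3.58.1, other scalings, filters and thresholds, the replicate number as a block, and each library left out. Permutation tests (scipy 1.17.1) were exact.

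The members and lists were chosen with earlier results of these data known. Values are given library by library for ERN1, EIF2AK3, ATF6, XBP1, CREB3L2 and up to 3 members of each role with the smallest adjusted p under 0.01, and up to 3 such genes are named in each further list. Protein sequences were not analysed here.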

Additional observations from a re-analysis of the deposited data

Results flagged for a closer look

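In each group of 5 libraries, a library at either end whose distance to its nearest neighbour was above 0.71 of the group's range (the critical value of Dixon's test) was noted for DDX41, the tested members and the genes given with values in the further lists. Of 124 groups examined, 5 held such a library, 2 of them in members, and chance alone is known to mark a small share of groups. SEL1L was at 345.4 CPM in siDDX41 replicate 5, below the other siDDX41 libraries at 355.1 to 357.6 CPM. SEC61G was at 62.8 CPM in siCtrl replicate 4, above the other siCtrl libraries at 58.6 to 59.7 CPM, and SRP14 was at 179.5 CPM in the same library, above 163.7 to 165.3 CPM. ERLIN2 was at 162.9 CPM in siDDX41 replicate 1, above 156.1 to 157.2 CPM in the others. ATF5 was at 10.95 CPM in siDDX41 replicate 1, below the other siDDX41 libraries at 12.6 to 13.1 CPM.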

How the results depend on the processing

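Under the 18 alternatives with no minimum change, 28 of the 35 tested members kept their call and sign. SDF2L1 lost its call with DESeq2's size factors or test, limma-voom or the replicate block, SEL1L with unscaled totals and DNAJC3 with DESeq2. HSPA5 gained one with unscaled totals and at an adjusted p under 0.05, as did SEC61A1 at that threshold. EDEM3 gained one in 4 alternatives that used all libraries. EDEM2, which never passed, turned to a log2 fold change of -0.0050 with unscaled totals, and it ranged from -0.024 to 0.039 on the log2 scale when single libraries were left out. Leaving out 1 library ended the call of SDF2L1 for siCtrl replicates 1, 2, 4 and 5 and siDDX41 replicates 1, 2, 4 and 5, of SEL1L for siCtrl replicates 1, 2, 4 and 5 and siDDX41 replicates 1 to 4, and of DNAJC3 for siCtrl replicate 4 and siDDX41 replicates 2 and 5 (edgeR adjusted p up to 0.0423, 0.0337 and 0.02). It gave HSPA5 a call without siCtrl replicate 3 and EDEM3 without siCtrl or siDDX41 replicate 3 (down to 0.00667 and 0.00433). Over all tested genes, leaving out 1 library gave 4648 to 4823 calls up and 4968 to 5121 down. The members then numbered 12 to 14 up and 11 to 14 down, and members of the ATF6 list called up numbered 1 to 2, as they did (1) with unscaled totals. The cause was not tested.

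Requiring also an absolute log2 fold change over 0.25 left 7 members up and 5 down, by its construction: chaperones 2 down, oxidoreductases 1 up and 0 down, degradation genes 0 down, translocon genes 1 up, the ATF6 list 1 up and 2 down, and the XBP1 list 3 up and 0 down. The shares of all tested genes at this threshold are not given here. The 30.3% up and 32.1% down above hold for the adjusted p alone, so these counts are not read against them. At the same threshold, and again without a share over all tested genes, the further lists had 4 down (other regulators), 2 down (PERK-ATF4), 14 up (other chaperones), 3 up and 7 down (other degradation genes), 14 up and 4 down (targeting) and 3 up and 7 down (exit and retrieval).

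With the replicate number as a block, 13 members were called up and 12 down, and over all genes 4790 up and 5097 down. The PERK and ATF4 list then had 4 down in place of 6. Deviations of libraries with the same number correlated between -0.048 and 0.039. Such values cannot settle whether libraries with the same number were prepared together, which the labels do not say. At this depth, a count of 0 over a group allows up to 0.025 CPM in siCtrl and 0.0256 CPM in siDDX41 (counting error only).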
